A study of Mus musculus with 6 samples.

Results

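The genes of the Ca2+/calmodulin-dependent protein kinases (CaM kinases) and of their inhibitor proteins were measured in single cells of the neonatal mouse cortex with and without *Fmr1*. The members were chosen by name, with earlier results of these data known. They are the CaMKII subunits *Camk2a*, *Camk2b*, *Camk2d* and *Camk2g*, the CaMKII inhibitors *Camk2n1* and *Camk2n2*, the upstream kinases *Camkk1* and *Camkk2*, and *Camk1* and *Camk4*. All 10 were among the 17418 genes counted. The cortex of 3 wild type (WT) mice of strain FVB.129P2-Pde6b+ Tyrc-ch/AntJ was compared with that of 3 *Fmr1* knockout (*Fmr1*-KO) mice, which are FVB.129P2-Pde6b+ Tyrc-ch Fmr1tm1Cgr/J. Every mouse was taken at postnatal day 5 (P5) and both sexes were used. The knockout allele is constitutive, so all cell types lacked a working gene from the start of development, and each mouse was a separate animal. Cells were captured with InDrop, a droplet method that reads the 3′ end of each mRNA and counts molecules by unique molecular identifier (UMI).

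CaM kinases are serine/threonine kinases that a rise in intracellular calcium switches on through calmodulin. CaMKII is a large holoenzyme built from α, β, γ and δ subunits, abundant at excitatory synapses, where its activation accompanies synaptic plasticity. The α subunit is a classic marker of forebrain excitatory neurons that rises as synapses mature, and its mRNA is carried into dendrites and is a well-known ligand of FMRP, the protein that *Fmr1* encodes. The β subunit binds F-actin. CaMKK phosphorylates and activates CaMKI and CaMKIV, the latter a nuclear kinase that acts on transcription through CREB.

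The subtypes used were those the authors deposited, and the 1113 cells marked as doublets were left out, which left 17280 cells. Over these cells *Fmr1*-KO 1 had the fewest UMIs, 7909181, and WT 3 the most, 20629134. WT 1, *Fmr1*-KO 1 and *Fmr1*-KO 2 were made with hydrogel bead version V2, and WT 2, WT 3 and *Fmr1*-KO 3 with V3.8. The bead version was therefore a term of the fits in pooled neurons and within subtypes. WT 1 was the only WT mouse on V2 and *Fmr1*-KO 3 the only *Fmr1*-KO mouse on V3.8. Without either of them, such a fit compares the genotypes on a single bead version. The median depth of an excitatory neuron was 976 to 1042 UMIs in the V2 mice and 2005 to 8588 UMIs in the V3.8 mice. Of the cell barcodes, 1854 occurred in more than 1 library of the same mouse, and these covered 4284 cells (24.8%). In 94.4% of them the cells carried a single subtype label. A further check found 341 barcodes in more than 1 mouse. The values below use every cell, and those with 1 cell per mouse and barcode stand beside the main comparison. *Fmr1* itself was at 59.0 to 70.6 CPM, the UMIs of a gene scaled to a fixed total of UMIs, in the neurons of the WT mice and at 15.8 to 24.9 CPM in those of the *Fmr1*-KO mice, with no overlap. The 3′ tag records the transcript level and not the disruption of the gene.

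The subtype labels were checked against marker genes. Among the subtypes with at least 100 cells, 5 of 7 excitatory, 4 of 6 interneuron and 3 of 4 ganglionic markers were highest in the subtype of that name, as were all markers of astrocytes, the oligodendrocyte lineage, microglia, endothelial cells and pericytes. The summed excitatory markers reached 4530 CPM in excitatory neurons, 303 CPM in interneurons and 125 CPM in ganglionic cells, which are immature cells of the germinal zones of the ventral forebrain. The separation was less clean the other way. The summed interneuron markers were at 1960 CPM in interneurons. Inside excitatory neurons they ran from 222 to 757 CPM in the WT mice and from 172 to 1937 CPM in the *Fmr1*-KO mice. Markers of Cajal-Retzius cells ran there from 71.1 to 395 CPM in the WT and from 58.6 to 1051 CPM in the *Fmr1*-KO mice. Astrocyte markers were not absent from neurons. Their sum lay between 304 and 1093 CPM in the excitatory neurons of a mouse and between 1156 and 1619 CPM in its ganglionic cells.

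Gene positions are those of GENCODE on GRCm38, the build the authors aligned to. *Camk2b* is on the minus strand at chr11:5969644-6066362 and *Camkk2* on the minus strand at chr5:122731170-122779409. *Camk1* shares exon sequence with *Ogg1* on the opposite strand, so a count that ignored strand could not tell them apart. *Camk4* overlaps an antisense gene in the same way. RefSeq held a promoter for 6 of the 10 members. The 250 bases before the RefSeq start of the 2 of them with the lowest log2 fold change of *Fmr1*-KO against WT in pooled neurons are shown 5′ to 3′ on the gene's strand (GRCm38.p6). Capitals mark the GC box, GGGCGG on either strand.
*Camk2b* (chr11:6065749-6065998): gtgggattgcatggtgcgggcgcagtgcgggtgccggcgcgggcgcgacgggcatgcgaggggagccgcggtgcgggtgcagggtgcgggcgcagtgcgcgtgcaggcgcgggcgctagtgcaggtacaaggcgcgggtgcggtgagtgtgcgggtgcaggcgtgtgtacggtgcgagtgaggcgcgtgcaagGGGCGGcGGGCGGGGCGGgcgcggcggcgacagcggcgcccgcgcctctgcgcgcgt
*Camkk2* (chr5:122779411-122779660): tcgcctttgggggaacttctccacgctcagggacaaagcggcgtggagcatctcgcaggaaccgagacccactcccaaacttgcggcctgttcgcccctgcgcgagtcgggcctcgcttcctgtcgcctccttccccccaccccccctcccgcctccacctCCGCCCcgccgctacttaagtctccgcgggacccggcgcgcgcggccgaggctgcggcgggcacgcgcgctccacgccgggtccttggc
The *Camk2b* sequence lies within a longer annotated *Camk2b* transcript and the *Camkk2* sequence just outside the gene. The first held 3 GC boxes, counting overlapping matches, and the second 1. Of the 32851 regions of this length, 32.7% held at least 1. G and C made up 78.4% of the *Camk2b* bases and 72.4% of the *Camkk2* bases, and the median over all regions was 52.4%. Neither held TATAA (22.8% of regions, either strand) or CCAAT (33.8%). Among the other promoters, *Camk2n2* had 6 GC boxes, *Camk2d* 3, *Camkk1* 2 GC boxes and 2 CCAAT matches, and *Camk1* none of these motifs.

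Levels across the cortex fell into a few patterns. Each level below is the CPM of a gene in that mouse and subtype, as the mean ± SD over mice of both genotypes with at least 10 cells of the subtype. The 14 subtypes with at least 100 cells were compared. Since the subtypes were defined from these same genes, the differences between them are a description. Of the 10 members, 6 were highest in excitatory neurons, and the other 4 were highest outside neurons.

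Among the CaMKII subunits, *Camk2a* was at 244 ± 86.4 CPM (n = 6) in excitatory neurons and 44.1 ± 27.7 CPM in interneurons. The ranges of these did not overlap, and *Camk2a* was the highest in excitatory neurons in 6 of 6 mice. *Camk2b* reached 705 ± 128 CPM in excitatory neurons, 201 ± 69.7 CPM (n = 5) in Cajal-Retzius (CR) cells and 169 ± 36.7 CPM in interneurons, and the last 2 did not differ beyond their spread. In ganglionic cells it was at 14.1 ± 5.74 CPM, close to its 12.2 ± 10.4 CPM in endothelial cells, which should lack it. The other subunits were not neuronal in their peak. *Camk2g* was highest in the Astrocytes_1 subtype (341 ± 51.1 CPM), ahead of Astrocytes_2 (276 ± 64.8 CPM) and excitatory neurons (223 ± 39.2 CPM), with overlapping ranges between each and the next. *Camk2d* was highest in Astrocytes_2 (148 ± 30.7 CPM) and Astrocytes_1 (120 ± 19.3 CPM), again overlapping, with 82.7 ± 29.1 CPM in excitatory neurons and 20.4 ± 10.6 CPM in ganglionic cells.

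The inhibitors, which bind the active catalytic site of CaMKII, differed from each other. *Camk2n1* was broad: 976 ± 329 CPM in excitatory neurons, 693 ± 146 CPM in Astrocytes_1, 578 ± 103 CPM (n = 3) in fibroblasts and 313 ± 30.8 CPM in endothelial cells. It was low in CR cells, at 24.5 ± 13.8 CPM, a subtype where *Camk2n2* was at 188 ± 54.9 CPM. *Camk2n2* followed neurons more closely, with 283 ± 43.4 CPM in excitatory neurons, 152 ± 46.5 CPM in interneurons, 109 ± 23.5 CPM in OPC_1 and 24.8 ± 9.48 CPM in Astrocytes_1.

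Of the upstream kinases, *Camkk2* was at 298 ± 63.0 CPM in excitatory neurons and 106 ± 34.4 CPM in interneurons, with ranges that did not overlap, and at 28.3 to 75.0 CPM on average in CR cells, astrocytes, the oligodendrocyte lineage, microglia, endothelial cells and pericytes. *Camkk1* was sparse, with 1259 UMIs over all cells, and was highest in pericytes (48.7 ± 14.3 CPM). Of their substrates, *Camk4* was at 494 ± 151 CPM in excitatory neurons against 166 ± 69.8 CPM in interneurons, without overlap. *Camk1* was highest in microglia (312 ± 62.6 CPM), more than in OPC_1 (136 ± 22.7 CPM) in 6 of 6 mice, and was at 70.8 ± 24.1 CPM in excitatory neurons. The share of cells with a *Camk1* UMI, after every cell was thinned to 700 UMIs, was 19.4% in microglia and 2.52% in endothelial cells, and 51.5% and 10.8% before thinning.

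**Figure D1:**
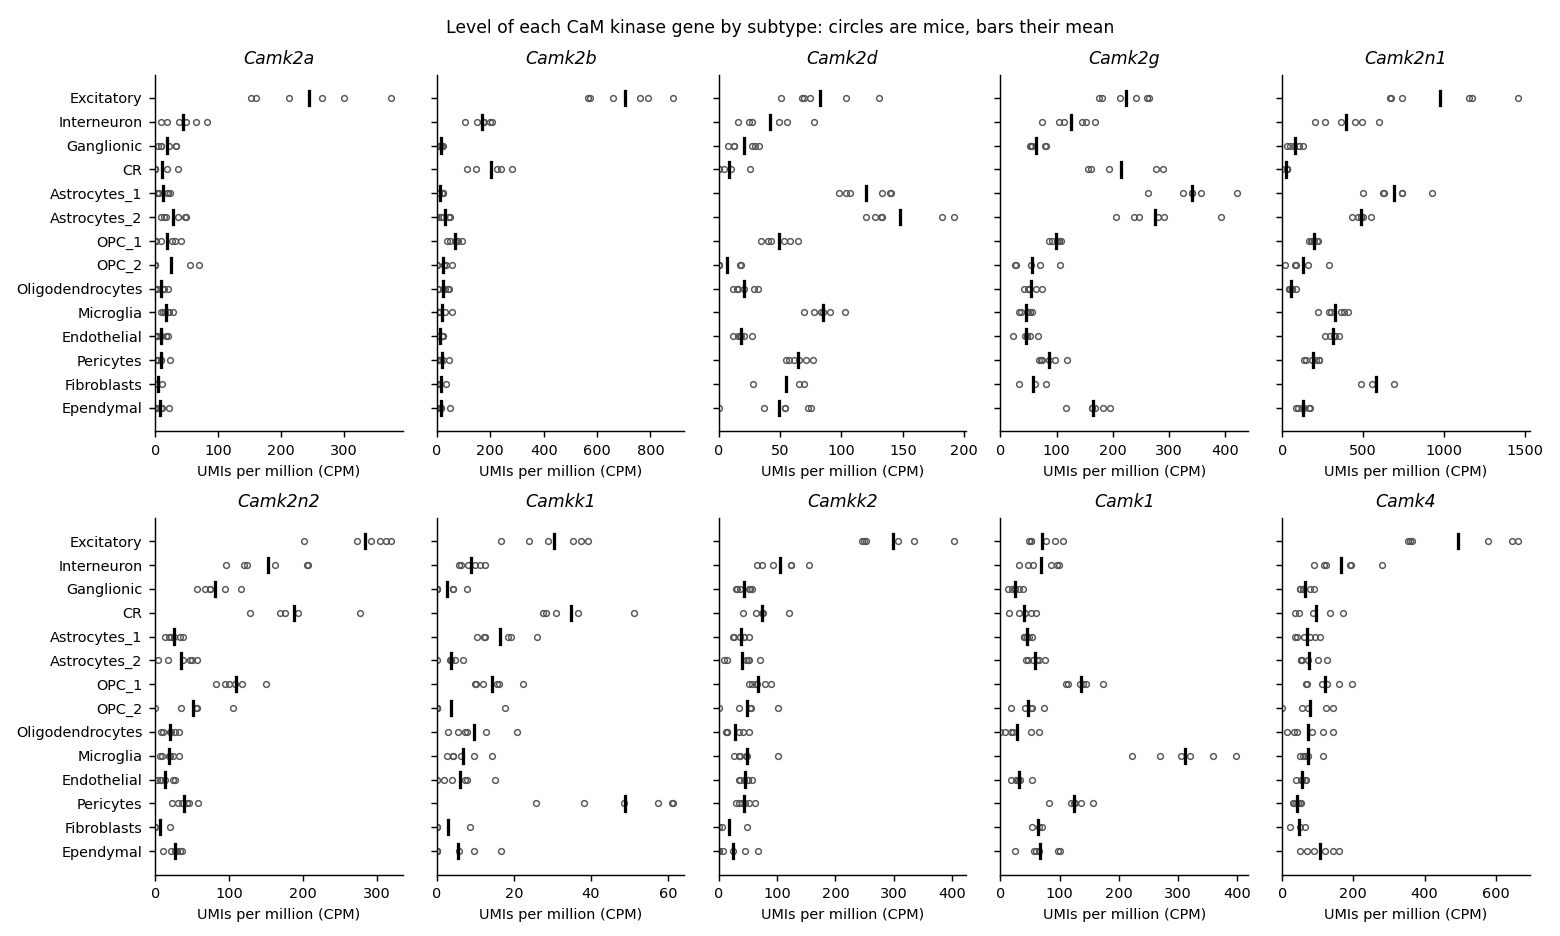
Level of each of the 10 genes (x axis, CPM, linear and scaled per gene) in the 14 subtypes with at least 100 cells (y axis). Circles are mice with at least 10 cells of the subtype and bars are their means: 6 genes peak in excitatory neurons, *Camk2g* and *Camk2d* in astrocytes, *Camk1* in microglia and *Camkk1* in pericytes.

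The other genes were ranked by how alike their pattern over subtypes was to that of each member. Likeness was Pearson's r of log2(CPM + 10) over the 14 subtypes, among 8229 genes of at least 20 CPM, and is a description, since all points share the same libraries. *Camk2a* was most like *Nrgn* (r = 0.964), the calmodulin-binding neurogranin, then *Grin2b* (0.964), an NMDA receptor subunit, and *Neurod6* (0.942). *Camk2b* was most like *Psd* (0.987), *Fbxo41* (0.987) and *Scn2a1* (0.986), the last a sodium channel. *Camk2n2* was most like *Fbxl16* (0.970) and *Cplx1* (0.957), *Camkk2* like *Pgm2l1* (0.960), and *Camk4* like *Ap4e1* (0.935) and *Arpp21* (0.920). *Camk2g* was most like *Tmem56* (0.929), *Camkk1* like *Gucy1b3* (0.888), and *Camk1* like *Pip4k2a* (0.853) and the chemokine *Ccl3* (0.847). The highest values were lower for *Camk2n1* (*Mmd*, 0.824) and *Camk2d* (*Dtx4*, 0.813).

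Pooled neurons, the neuron subtypes of a mouse summed, were compared first. All 7 members that had a UMI in at least 15% of neurons were lower in *Fmr1*-KO mice, with a median log2 fold change of -0.37. Over the 3763 genes tested the median was 0.00 and 50.2% were lower. The members were chosen with earlier results known, and the authors had named *Camk2b* and *Camkk2* as lower in these neurons, so this contrast is a description. Of the 7, 4 passed an unadjusted p of 0.05 in edgeR's quasi-likelihood test (*Camk2b*, *Camkk2*, *Camk4* and *Camk2n1*), where 16.6% of all genes did. None passed a false discovery rate (FDR) of 0.01 and the study's minimum fold change together, and neither did any other gene (0.0%). With DESeq2 the same 4 of 7 passed the unadjusted p and 0 were called, among 19 genes called in all. The pooled and subtype comparisons share the same mice and cells.

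*Camk2b* was at 372, 717 and 587 CPM in the neurons of WT 1, 2 and 3 and at 247, 276 and 482 CPM in those of *Fmr1*-KO 1, 2 and 3. Each *Fmr1*-KO mouse was below each WT mouse of its bead version, but *Fmr1*-KO 3 was above WT 1, so the groups overlapped. The fitted log2 fold change was -0.47 ± 0.12 (SE), with an edgeR adjusted p of 0.144. *Camkk2* was at 156, 342 and 268 CPM in the WT and at 110, 125 and 200 CPM in the *Fmr1*-KO mice, with a log2 fold change of -0.51 ± 0.14 (edgeR adjusted p = 0.16). *Camk4* was at 213, 562 and 510 CPM against 148, 186 and 375 CPM (log2 fold change -0.43 ± 0.12, edgeR adjusted p = 0.167). Both followed the same order of mice as *Camk2b*. *Camk2n1* was at 402, 962 and 1152 CPM against 309, 375 and 742 CPM (log2 fold change -0.37 ± 0.13, edgeR adjusted p = 0.229). For none of the 7 did the groups separate, where 4.76% of all genes were lower and 5.16% higher in all *Fmr1*-KO mice than in all WT mice.

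The other 3 members tested missed the unadjusted threshold. *Camk2a* had a log2 fold change of -0.35 (95% interval -0.82 to 0.12), *Camk2n2* of -0.26 (-0.56 to 0.04) and *Camk2g* of -0.05 (-0.30 to 0.21). Within the bead versions, the log2 ratio of the *Fmr1*-KO to the WT mean (0.5 CPM added) was -0.51 (V2) and -0.43 (V3.8) for *Camk2b*, -0.42 and -0.60 for *Camkk2*, -0.36 and -0.51 for *Camk4*, and -0.24 and -0.50 for *Camk2n1*. Each ratio rests on 1 mouse against 2. With 1 cell per barcode the fitted values were -0.48 for *Camk2b*, -0.55 for *Camkk2*, -0.46 for *Camk4* and -0.39 for *Camk2n1*. *Camk2d*, *Camkk1* and *Camk1* did not reach 15% of neurons and were not tested there.

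The neurons captured from the 2 genotypes did not have the same mix of subtypes, a difference that was not tested. The authors detected no change in the numbers of any subtype with the knockout. Excitatory neurons were 56.8%, 75.3% and 49.5% of the neurons in WT 1, 2 and 3 and 42.0%, 48.6% and 35.6% in *Fmr1*-KO 1, 2 and 3. The groups did not overlap over all cells, but with 1 cell per mouse and barcode *Fmr1*-KO 2 (53.6%) was above WT 3 (48.0%). Ganglionic cells were 10.9 to 13.2% in the WT and 18.5 to 23.5% in the *Fmr1*-KO mice, without overlap, and 9.74 to 14.3% against 18.0 to 22.1% with 1 cell per mouse and barcode. As shares of neuron UMIs, excitatory neurons held 44.6%, 79.8% and 72.2% against 27.6%, 37.3% and 54.4%, which overlapped. In pooled neurons, fewer cells of a subtype and less RNA per cell cannot be told apart. The comparison was therefore repeated with 59 cells of each of the 3 large subtypes from every mouse, taken in a single random draw. This made the cell numbers equal but not the UMIs per cell. The share of each subtype in the summed UMIs could thus still differ between mice. At this equal mix *Camk2b* had a log2 fold change of -0.05 (95% interval -0.43 to 0.32) and *Camk4* of 0.01 (-0.35 to 0.38). *Camk2n1* had -0.21 (-0.62 to 0.19), *Camk2n2* -0.19 (-0.56 to 0.18), *Camk2g* 0.28 (-0.13 to 0.68) and *Camk2a* -0.32 (-0.72 to 0.07). *Camkk2* had -0.37 (-0.72 to -0.02), with an edgeR adjusted p of 0.998, and was the only member below an unadjusted p of 0.05. At this mix 115 genes in all were below that p, against 626 of 3763 over all neurons. Drawing as many neurons at random, with each mouse's own mix, gave -0.26 for *Camk2b* (-0.63 to 0.11), -0.44 for *Camk4*, -0.43 for *Camk2n1* and -0.55 for *Camkk2*. Another form used all cells and gave every mouse the same weights for the 3 large subtypes, with no bead version term and no test. The mean difference in log2 CPM between the genotypes was then -0.39 for *Camk4* (-0.06 within V2 and -0.20 within V3.8). It was -0.22 for *Camk2b* (-0.19 within V2 and -0.01 within V3.8) and -0.31 for *Camkk2* (-0.06 and -0.27). For *Camk2n1* it was -0.30 (0.10 and -0.17) and for *Camk2a* 0.36 (0.23 and -0.08). For each of these members the value over all mice lay outside both values within the bead versions. Computed in the same way with each mouse's own mix, it was -0.82 for *Camk4*, -0.74 for *Camk2b*, -0.74 for *Camkk2*, -0.73 for *Camk2n1* and -0.19 for *Camk2a*. The values of *Camk4* and *Camk2a* differed between the equal mix and the fixed weights, that of *Camk2a* in direction. These forms also differ in the bead version term.

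**Figure D2:**
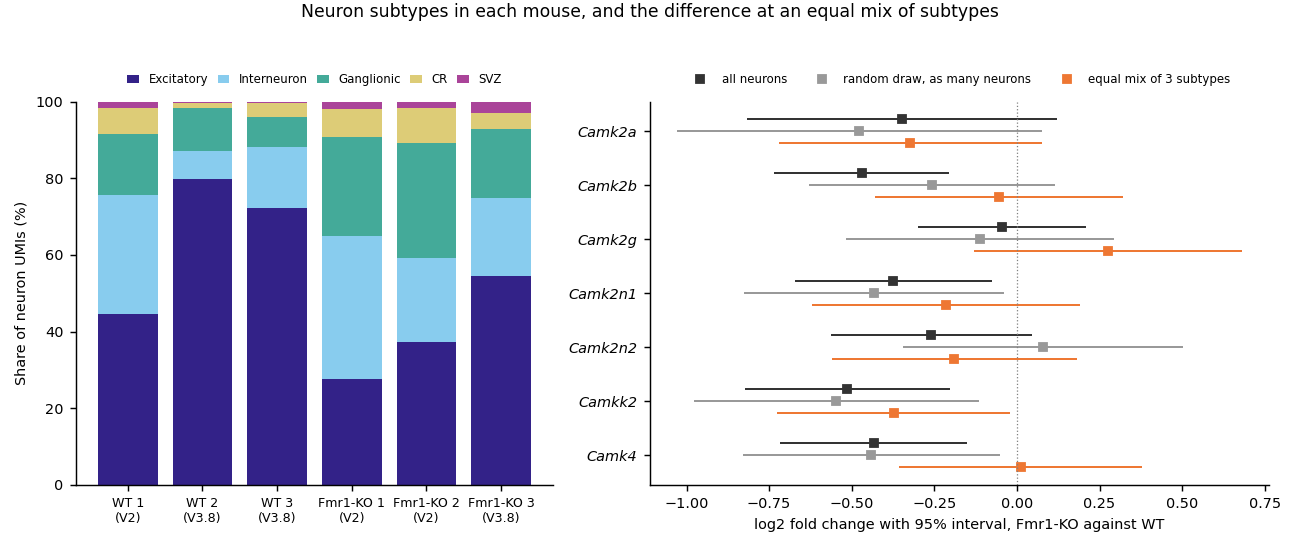
Left, share of each mouse's neuron UMIs (y axis, %) held by the 5 neuron subtypes (colors), with the bead version under each mouse. Right, log2 fold change of *Fmr1*-KO against WT with its 95% interval (x axis) for the 7 members tested, over all neurons, over a random draw of as many neurons, and over an equal mix of 3 subtypes by cell number. From all neurons to the equal mix *Camk2b* moves from -0.47 to -0.05 and *Camk4* from -0.43 to 0.01, while *Camkk2* moves from -0.51 to -0.37. The random draw, at each mouse's own mix, moves *Camk2b* part of the same way but not *Camk4* or *Camkk2*.

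Excitatory neurons on their own (2160 cells, 162 to 617 per mouse) showed no member past either threshold. Of the 8 tested, 6 were lower and 2 higher in *Fmr1*-KO mice, with a median log2 fold change of -0.10 against 0.00 over all 3724 genes. None had an unadjusted p under 0.05, where 3.44% of all genes did, and none was called, as for all genes (0.0%). For none of them did the groups separate (2.77% of all genes lower, 1.5% higher). The lowest adjusted p of a member was 1.00, and DESeq2 also gave 0 members at an unadjusted p of 0.05 here, in interneurons and in ganglionic cells.

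*Camk2b* was at 658, 883 and 761 CPM in the excitatory neurons of WT 1, 2 and 3 and at 566, 572 and 792 CPM in those of *Fmr1*-KO 1, 2 and 3. *Fmr1*-KO 3 lay between WT 3 and WT 2, and the V2 *Fmr1*-KO mice lay below WT 1. The log2 fold change was -0.12 (95% interval -0.38 to 0.14). *Camkk2* was at 245, 404 and 334 CPM against 253, 249 and 307 CPM. All 3 *Fmr1*-KO mice lay within the WT range, and its log2 fold change was -0.11 (-0.43 to 0.20). *Camk4* was at 366, 662 and 647 CPM against 360, 353 and 578 CPM, with a log2 fold change of -0.10 (-0.36 to 0.16). All V3.8 mice were above all V2 mice, whatever their genotype.

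*Camk2n1* was split by bead version too, at 665 to 740 CPM in the V2 mice and 1154 to 1455 CPM in the V3.8 mice of either genotype. Its log2 fold change was -0.03 (-0.31 to 0.25). *Camk2n2*, the second inhibitor, was at 304, 273 and 319 CPM in the WT and 201, 292 and 312 CPM in the *Fmr1*-KO mice, and only *Fmr1*-KO 1 was below the WT range. Its log2 fold change was -0.09 (-0.45 to 0.27).

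*Camk2a* was at 265, 212 and 152 CPM in the WT and at 301, 375 and 161 CPM in the *Fmr1*-KO mice. It was higher in each *Fmr1*-KO mouse on V2 beads than in WT 1, and its log2 fold change was 0.11 (-0.31 to 0.53). *Camk2g* had a log2 fold change of 0.11 (-0.19 to 0.40) and *Camk1* of -0.23 (-0.61 to 0.16). *Camk2d* and *Camkk1* had a UMI in 13.1% and 8.61% of excitatory neurons, below the filter. When edgeR's filterByExpr chose the genes in place of the 15% rule, all 10 members entered, and 0 passed an unadjusted p of 0.05 (3.34% of the 10329 genes). *Camkk1* was then at a log2 fold change of 0.53 (-0.07 to 1.13).

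**Figure D3:**
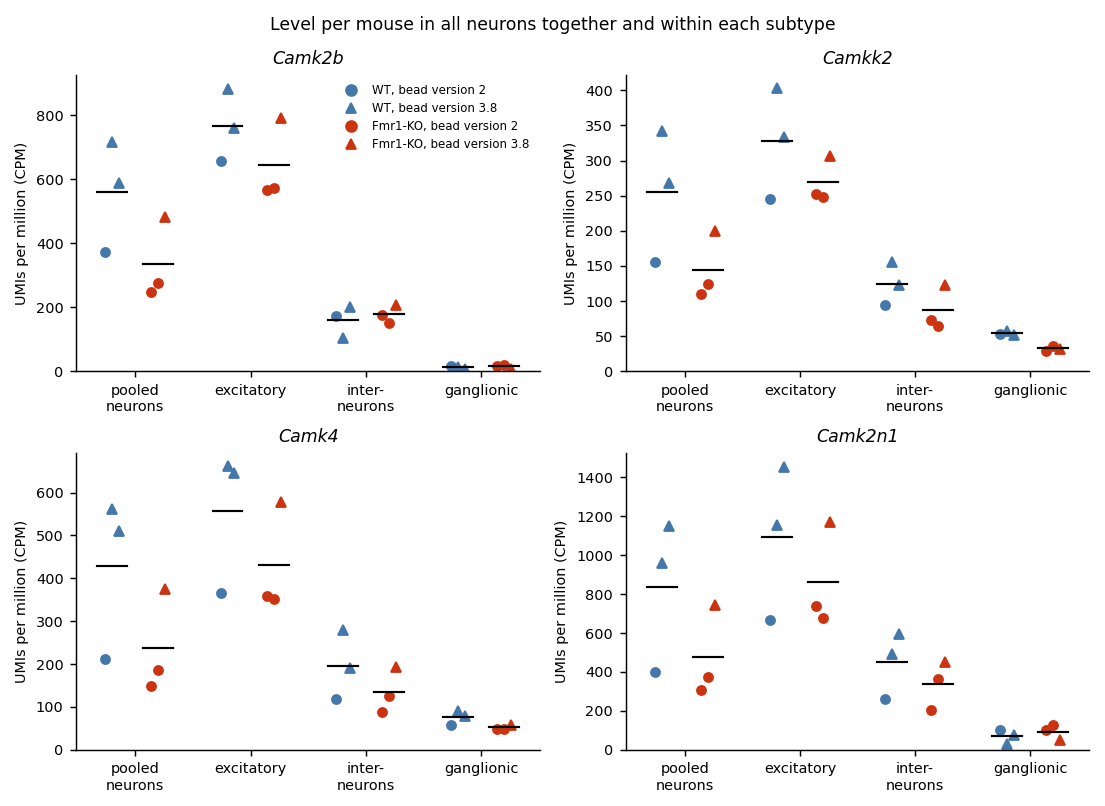
Level (y axis, CPM, from 0) of *Camk2b*, *Camkk2*, *Camk4* and *Camk2n1* in each mouse, over all neurons and within 3 subtypes (x axis). Blue is WT and red *Fmr1*-KO, circles are bead version 2 and triangles 3.8, and lines are the means of 3 mice: the groups lie closer together within excitatory neurons than over all neurons.

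Interneurons (1109 cells) also had 0 of 6 tested members past an unadjusted p of 0.05, where 4.53% of 3177 genes were. None was called, as for all genes (0.0%). Of the 6, 4 were lower, with a median log2 fold change of -0.05 against 0.00 over all genes, and no member's groups separated (4.0% of all genes lower, 2.86% higher). *Camkk2* was at 93.9, 156 and 123 CPM in WT 1, 2 and 3 and at 73.7, 65.0 and 123 CPM in *Fmr1*-KO 1, 2 and 3. *Fmr1*-KO 3 lay at the level of WT 3, and the log2 fold change was -0.28 (95% interval -0.69 to 0.14). *Camk2b* was at 173, 106 and 200 CPM against 177, 151 and 206 CPM, a log2 fold change of 0.09 (-0.31 to 0.50). WT 2, with 59 interneurons, gave the lowest value. *Camk4* had -0.17 (-0.59 to 0.24), *Camk2n1* -0.10 (-0.50 to 0.29), *Camk2n2* 0.00 (-0.39 to 0.38) and *Camk2g* 0.23 (-0.19 to 0.66).

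*Camk2d*, the δ subunit of CaMKII, was below the filter in interneurons, with a UMI in 7.30% of them, and showed the largest genotype difference of the 9 members that edgeR's other filter kept there. It was at 15.8, 24.9 and 27.4 CPM in WT 1, 2 and 3 (14, 4 and 14 UMIs) and at 77.8, 55.5 and 48.9 CPM in *Fmr1*-KO 1, 2 and 3 (57, 29 and 23 UMIs). Every *Fmr1*-KO mouse was above every WT mouse, as for 3.21% of the 7626 genes that filterByExpr kept. Over these that filterByExpr kept, its log2 fold change was 1.55 ± 0.34, with an edgeR adjusted p of 0.293, so it did not pass the correction. Of the 9 members that this filter kept, it was the only one with an unadjusted p under 0.05, where 4.33% of all genes were. Without WT 1 it was 0.88 (-0.14 to 1.91) and missed the unadjusted threshold. That fit compares the genotypes on V3.8 alone, and the fit without *Fmr1*-KO 3 (2.09) on V2 alone. *Camk2d* passed the threshold under each of the other alternatives that gave a value. Counts thinned to 700 UMIs per cell gave none. The log2 ratio was 2.02 within V2 and 0.89 within V3.8.

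Markers of other cells were looked up beside this value, since *Camk2d* was 148 CPM in Astrocytes_2. The summed astrocyte markers (6 genes, none at 0) were 304 to 373 CPM in the interneurons of the WT and 336 to 475 CPM in those of the *Fmr1*-KO mice. The 4 endothelial markers were at 0 to 22.6 CPM against 12.8 to 210 CPM, the 3 pericyte markers at 0 to 3.39 CPM against 5.46 to 17.2 CPM and the 5 microglial markers at 0 to 43.0 CPM against 2.13 to 49.1 CPM. The part of these cells in the *Camk2d* difference was not tested. In excitatory neurons *Camk2d* had a log2 fold change of -0.07 (95% interval -0.76 to 0.63), with WT 2 the highest mouse at 131 CPM.

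Ganglionic cells (682 cells) passed the filter for 4 members. *Camk2n2* had a log2 fold change of 0.17 (95% interval -0.36 to 0.71), *Camk2g* of 0.10 (-0.50 to 0.70), *Camk2n1* of 0.08 (-0.47 to 0.63) and *Camk4* of -0.38 (-0.94 to 0.19). The median was 0.09 against 0.00 over all 4009 genes. None of the 4 passed an unadjusted p of 0.05, where 6.39% of all genes did, and none was called, against 0.0499% of all genes. *Camk4* was at 58.2, 90.5 and 79.3 CPM in the WT and 49.2, 49.4 and 58.5 CPM in the *Fmr1*-KO mice, and *Fmr1*-KO 3 was just above WT 1. No member's groups separated among the 4 (4.34% of all genes lower, 3.62% higher).

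*Camkk2* was below the filter in ganglionic cells, with a UMI in 11.4% of them. It was at 53.8, 57.6 and 51.6 CPM in WT 1, 2 and 3 (24, 14 and 13 UMIs) and at 29.5, 36.7 and 31.7 CPM in *Fmr1*-KO 1, 2 and 3 (15, 26 and 13 UMIs). Over both genotypes *Camkk2* averaged 43.5 ± 12.2 CPM in these cells, close to its 45.5 ± 8.78 CPM in endothelial cells. All *Fmr1*-KO mice were below all WT mice, as for 4.62% of the 7057 genes that filterByExpr kept. With this filter the log2 fold change was -0.72 ± 0.33 (edgeR adjusted p = 0.948), the only 1 of 7 members with an unadjusted p under 0.05, where 5.09% of all genes were. The log2 ratio was -0.70 within V2 and -0.77 within V3.8. It missed the unadjusted threshold with DESeq2 over the same genes (-0.73 ± 0.50) and without WT 1, WT 2, *Fmr1*-KO 1 or *Fmr1*-KO 3. The fits without WT 1 (-0.77) and without *Fmr1*-KO 3 (-0.68) again compare the genotypes on a single bead version.

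**Figure D4:**
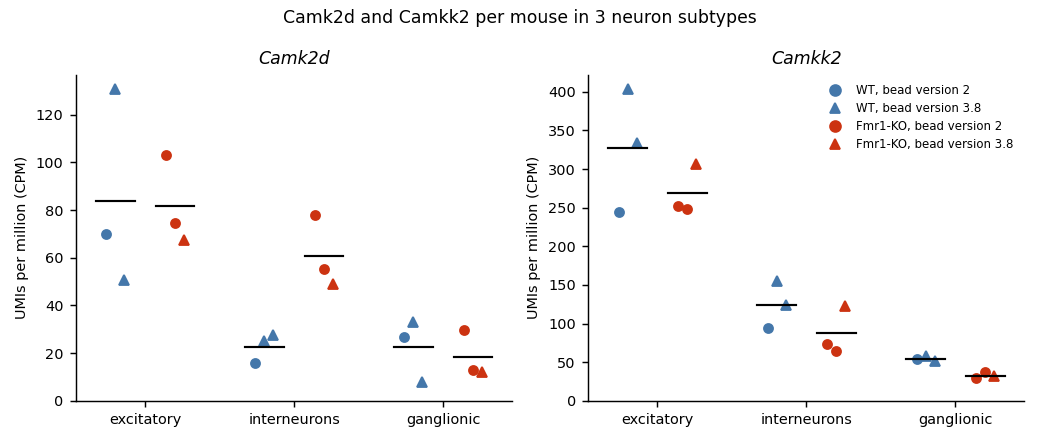
Level (y axis, CPM, from 0) of *Camk2d* and *Camkk2* in each mouse within excitatory neurons, interneurons and ganglionic cells (x axis), with colors and symbols for genotype and bead version and lines at the means of 3 mice. The *Fmr1*-KO interneurons lie above the WT ones for *Camk2d*, and the *Fmr1*-KO ganglionic cells below the WT ones for *Camkk2*.

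The genotype effect was then compared between subtypes, in a model with a term per mouse. It had no term for the bead version in each subtype, so its values are not the plain differences of the fold changes given above. Between interneurons and excitatory neurons, 6 members could be tested, and the difference of their log2 fold changes ran from -0.28 for *Camkk2* (95% interval -0.81 to 0.25) to 0.32 for *Camk2b* (-0.29 to 0.92). None passed an unadjusted p of 0.05 (2.32% of 2718 genes) and none was called (0.0%). Between ganglionic cells and excitatory neurons, the 4 members tested ran from -0.19 for *Camk4* to 0.64 for *Camk2n1* (-0.63 to 1.91). None passed the unadjusted p (2.52% of 2575 genes) and none was called (0.0%). Between ganglionic cells and interneurons they ran from -0.03 for *Camk4* to 0.67 for *Camk2n1* (-0.36 to 1.70), with none past the unadjusted p (3.93% of 2772 genes) and none called (0.0%). The differences of both inhibitors moved when certain mice were left out of this model. Leaving out WT 1 kept only V3.8 mice in the WT group, and leaving out *Fmr1*-KO 3 kept only V2 mice in the *Fmr1*-KO group. Whether the mouse or its bead version moved the values was not tested. For *Camk2n1*, the value between ganglionic cells and excitatory neurons was 1.44 without WT 1 (95% interval 0.25 to 2.64) and 1.12 without *Fmr1*-KO 3 (0.10 to 2.14). Between ganglionic cells and interneurons it was 1.60 (0.69 to 2.51) and 1.16 (0.24 to 2.09). *Camk2n2* went from 0.43 to 0.74 without *Fmr1*-KO 3 (0.05 to 1.44) and to 0.01 without *Fmr1*-KO 1 in the first comparison, and from 0.54 to 1.08 (0.38 to 1.77) and 0.10 in the second. The 4 *Camk2n1* values and those of *Camk2n2* without *Fmr1*-KO 3 passed the unadjusted threshold and none the FDR. With all mice and a bead version term for each subtype, *Camk2n1* was at 0.05 and 0.09, against 0.64 and 0.67 without that term. *Camk2n2* was then at 0.28 and 0.23, against 0.43 and 0.54.

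**Figure D5:**
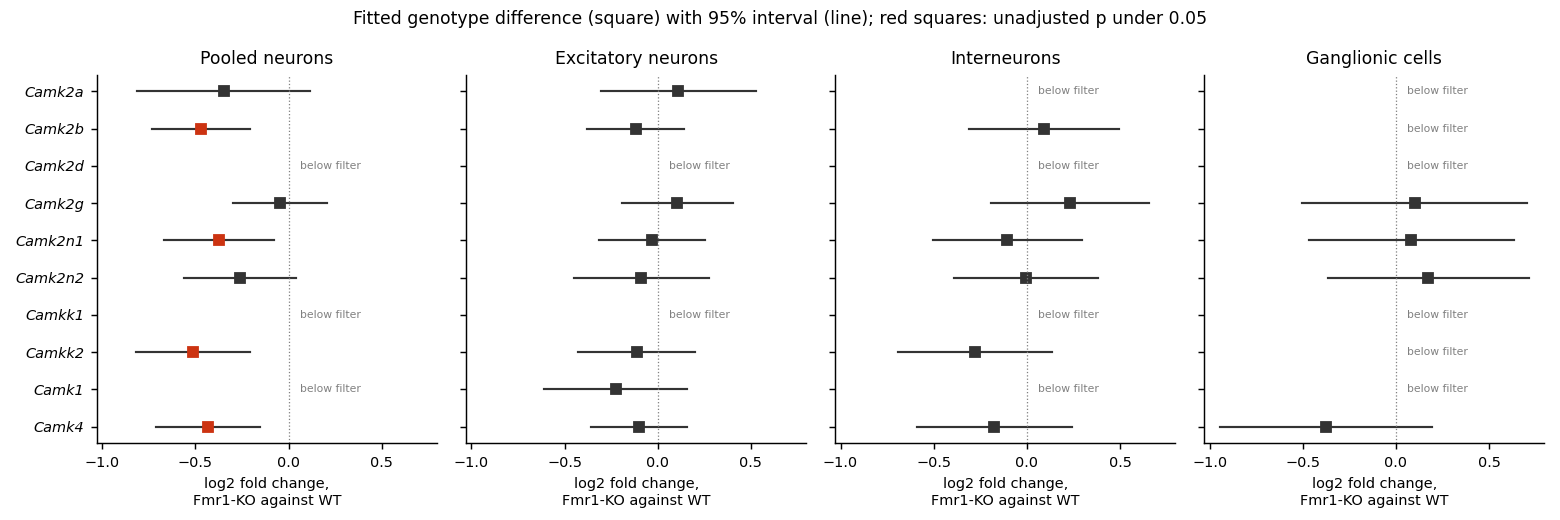
Fitted log2 fold change of *Fmr1*-KO against WT (x axis, squares) with its 95% interval (lines) for the 10 members (y axis) in pooled neurons and in 3 subtypes. Red squares have an unadjusted p under 0.05 and are seen in pooled neurons alone (4 of 7), and members below the 15% filter are named as such.

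CR cells (123) and cells of the subventricular zone (SVZ, 65) were too few for a test. In CR cells of mice with at least 10, *Camk2b* ran from 145 to 282 CPM in the WT and 113 to 238 CPM in the *Fmr1*-KO mice. *Camk2g* ran from 162 to 290 CPM and 155 to 278 CPM, so both overlapped.

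Outside neurons no member was called in any of 7 subtypes. The share of all genes called was 0.0208% in Astrocytes_1, 0.0% in Astrocytes_2, 0.0% in endothelial cells, 0.0% in microglia, 0.0423% in oligodendrocytes, 0.0245% in OPC_1 and 0.0% in pericytes. The 1 gene called in Astrocytes_1, and in OPC_1, was *Fmr1* itself. At an unadjusted p of 0.05 there were 3 member results. *Camk2g* in Astrocytes_2, a subtype where it is among the highest, had a log2 fold change of -0.42 ± 0.17 (edgeR adjusted p = 0.990), with 4.26% of all genes past that p. Its mean was 321 ± 61.6 CPM in the WT and 230 ± 21.8 CPM in the *Fmr1*-KO mice. In Astrocytes_1 it was 0.08 (95% interval -0.22 to 0.39), and 0 of 5 members passed there (4.72% of all genes). *Camk2g* in endothelial cells had -0.72 ± 0.26 (edgeR adjusted p = 0.319), where 11.0% of all genes passed. *Camk2b* in OPC_1 had -0.42 ± 0.19 (edgeR adjusted p = 0.947), where 4.24% did. Leaving out *Fmr1*-KO 3, after which the genotypes are compared on V2 alone, took these to -0.31, -0.41 and -0.29, none past the unadjusted threshold. Without WT 3 *Camk2g* missed it too, at -0.31 in Astrocytes_2 and -0.60 in endothelial cells. *Camk2b* in OPC_1 also missed it without WT 2 (-0.29) and without *Fmr1*-KO 1 (-0.43). With DESeq2, *Camk2g* in endothelial cells passed it and the other 2 did not. No member passed in microglia (3.12% of all genes), oligodendrocytes (4.4%) or pericytes (3.29%). *Camk1* in microglia, its highest subtype, was at 329 ± 64.8 CPM in the WT and 295 ± 68.8 CPM in the *Fmr1*-KO mice (n = 3 each), a log2 fold change of 0.01 (-0.40 to 0.42).

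Other genes of calcium/calmodulin signaling were read from lists. These lists held calmodulins, calmodulin-binding proteins, related kinases, calcineurin, kinase phosphatases, synaptic partners, and targets of CaMKK, CaMKI and CaMKIV. Of their 40 genes, 26 were tested in pooled neurons, of which 21 were lower in *Fmr1*-KO mice (median log2 fold change -0.16), against 50.2% of all genes, and 8 had an unadjusted p under 0.05, all lower, against 16.6% of all genes. None was called. In excitatory neurons 19 of 30 were lower (median -0.03) and 1 had an unadjusted p under 0.05 (3.44% of all genes). In interneurons 15 of 22 were lower and 0 passed (4.53%), and in ganglionic cells 11 of 18 were lower and 2 passed (6.39%).

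Among the lists, the 6 synaptic partners tested were all lower in pooled neurons (median -0.30), with 3 past the unadjusted p. *Gria1*, an AMPA receptor subunit, was at -0.31 ± 0.10 (edgeR adjusted p = 0.201) in pooled neurons and -0.24 (95% interval -0.59 to 0.10) in excitatory neurons. *Grin2b*, an NMDA receptor subunit to which CaMKII binds, was at -0.26 in pooled and 0.16 in excitatory neurons, past neither p. *Gria2*, another AMPA receptor subunit, was at -0.18 and 0.05. All 3 tested calcineurin genes were lower in pooled neurons. *Ppp3ca*, its catalytic subunit, was at -0.32 ± 0.11 (edgeR adjusted p = 0.212) there and -0.03 in excitatory neurons. *Ppp3r1*, the regulatory subunit, was at -0.32 ± 0.10 (edgeR adjusted p = 0.201) and -0.15, and *Ppp3cb*, another catalytic subunit, at -0.14 and 0.10. *Camkv*, a kinase-like protein that lacks activity, was at -0.46 ± 0.12 (edgeR adjusted p = 0.158) and -0.04. The doublecortin-like kinases *Dclk1* and *Dclk2* were at -0.13 and 0.05 in pooled neurons. *Nrgn*, which holds calmodulin in spines, was at -0.43 ± 0.19 (edgeR adjusted p = 0.294) and 0.02. *Gap43*, a protein of growth cones that binds calmodulin, was at -0.26 ± 0.09 (edgeR adjusted p = 0.229) and 0.13, and *Marcks*, an actin-binding protein, at 0.18 and 0.05. Of the phosphatases, *Ppm1e* was at -0.17 in pooled and -0.07 in excitatory neurons, and *Ppm1f* did not reach the filter. The 4 tested targets of CaMKK, CaMKI and CaMKIV had a median of 0.08 in pooled neurons. There the coactivator *Crebbp* was at 0.16, the histone deacetylase *Hdac5* at -0.11 and the kinase *Akt1* at 0.02. In excitatory neurons the 1 gene past the unadjusted p was *Shank3*, a postsynaptic scaffold, at -0.51 ± 0.19 (edgeR adjusted p = 1.00), with means of 76.3 CPM in the WT and 72.2 CPM in the *Fmr1*-KO mice, named after its value was seen.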

How the data were processed

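Per the labels and the authors' methods, reads were aligned to mm10 with TopHat2 2.0.14 and UMIs were counted per RefSeq gene, ignoring reads with several positions. The deposited counts were not normalized. The authors removed barcodes under 700 UMIs, clustered the cells in 2 rounds and deposited the subtypes and doublet marks used here. The table of counts and the annotation were joined by cell, and every library was mapped to its mouse by name.

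UMI counts were summed per mouse and subtype. A gene entered the test in a subtype where 15% or more of the cells held a UMI of it, and was tested with edgeR 4.0.16 (quasi-likelihood, TMM, bead version as covariate, R 4.3.3; a term per mouse between subtypes), and called at an FDR under 0.01 with the study's minimum fold change. Subtypes with under 100 cells per genotype were not tested. Alternatives were DESeq2 1.42.0, other filters and scalings, thinning and leaving out each mouse. The replicate is the mouse (3 per genotype), and an exact permutation test of 3 against 3 cannot go below p = 0.1. The members and gene lists were chosen with earlier results of these data known. Genes were named by rule: all members, and per list the 3 highest in neurons. The values of 1 list are not reported here. The authors' size factors were not used. Strand use in counting was not given in the sources used here.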

Additional observations from a re-analysis of the deposited data

How the results depend on the processing

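V2 excitatory neurons held fewer UMIs than V3.8 ones, and 41 cells had fewer than the 700 UMIs used for thinning. In pooled neurons 0 members were called, but 1 with no filter on low counts (*Camkk2*, -0.53). Members with an unadjusted p under 0.05 there numbered 4, but 1 with no bead version term and 1 at the equal mix. When a mouse was left out they numbered 1 to 6, the lowest without *Fmr1*-KO 3, where the genotypes are compared on V2 alone. All genes at that p numbered 626, but 1360 with filterByExpr, 1806 with no filter, 377 with DESeq2, 190 with no bead version term, 334 thinned, 115 at the equal mix and 311 in the random draw, and 155 (no filter) or 19 (DESeq2) were called. In interneurons 0 members passed the unadjusted p, but 1 with filterByExpr, 1 with no filter and 1 with the replicate block, and 0 to 1 when a mouse was left out (*Camk2n1* -0.34 without *Fmr1*-KO 2, *Camk2g* 0.57 without *Fmr1*-KO 3). In ganglionic cells 0 passed, but 1 with filterByExpr and 1 with no filter. In excitatory neurons 0 passed under each alternative, while all genes at that p went from 128 to 345 with filterByExpr, 565 with no filter, 52 with DESeq2 and 32 with no bead version term. In interneurons 144 became 330, 531, 31 and 58 under the same 4 settings, and in ganglionic cells 256 became 604 with no filter, 59 with DESeq2, 116 with no bead version term and 163 thinned. With no filter, 14, 9 and 4 genes were called in the 3 subtypes.

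Directions reversed in pooled neurons at the equal mix (*Camk2g* 0.28, *Camk4* 0.011) and in the random draw (*Camk2n2* 0.080), and the cause was not tested. In excitatory neurons *Camk2g* was -0.015 with no bead version term and -0.014 with the replicate block, and thinning gave -0.082 for *Camk2a* and 0.24 for *Camk2n2*. In interneurons *Camk2n2* was 0.0076 with filterByExpr, *Camk2g* -0.044 with no bead version term, and thinning gave 0.36 for *Camk2n1* and 0.33 for *Camk2n2*. In ganglionic cells thinning gave -0.22 for *Camk2g*, -0.067 for *Camk2n1* and 0.039 for *Camk4*. Leaving out a mouse moved *Camk2g* in pooled neurons from -0.17 to 0.090. In excitatory neurons it moved *Camk2a* from -0.18 to 0.37, *Camk2n1* from -0.16 to 0.10, *Camk2n2* from -0.27 to 0.073 and *Camkk2* from -0.26 to 0.043. In interneurons it moved *Camk2b* from -0.056 to 0.28, *Camk2g* from -0.13 to 0.57, *Camk2n1* from -0.34 to 0.10 and *Camk2n2* from -0.21 to 0.22. In ganglionic cells it moved *Camk2g* from -0.24 to 0.38, *Camk2n1* from -0.10 to 0.28 and *Camk2n2* from -0.33 to 0.50. Thinned counts with filterByExpr gave no value for *Camk2d* in interneurons or *Camkk2* in ganglionic cells.

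Whether the replicate numbers pair the mice could not be told, since the correlations followed the bead version. Deviations from the group means correlated at 0.78, -0.50 and 0.80 for numbers 1, 2 and 3 in pooled neurons, and the negative pair was the one with unlike bead versions. Pairs with unlike numbers but like bead versions were at 0.67 (WT 1 and *Fmr1*-KO 2) and 0.72 (WT 2 and *Fmr1*-KO 3). With the replicate block, 5 members had an unadjusted p under 0.05 in pooled neurons, and *Camk2b* was at -0.74.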
